A study of Mus musculus with 24 samples.

Results

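Single cortical collecting ducts dissected from mouse kidney were compared by how strongly they carried immediate-early transcripts. Each tubule was scored by the mean log2(TPM + 1) of Fos, Junb and Egr1, where TPM is an expression unit scaled for gene length and library total. The 4 highest and the 4 lowest tubules of each genotype were chosen by this score, which gave 8 high and 8 low tubules. Those 16 tubules were part of 24 in all, and the other 8 are called middle tubules here. The collecting duct is the last segment of the nephron, where principal cells take up water and sodium and intercalated cells move acid and base.

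The series held 12 tubules from MUT mice and 12 from WT mice, with 3 tubules from each of 4 mice per genotype. MUT mice carried Thr551Ala/Ser552Ala at beta-catenin per the labels, while the deposited table's own legend gives the serine change alone. Both groups were untreated 10-week-old male C57BL/6 mice kept 1 per cage, although the labels' treatment field reads vehicle for every sample. The labels give the alteration for the mouse, and state no promoter or cell type that restricts it.

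Immediate-early genes are switched on within minutes of a stimulus, from transcription factors that the cell already holds, and need no new protein synthesis. Many encode transcription factors of the AP-1, EGR and NR4A families, which act on later genes. Others encode proteins that end the response, such as phosphatases of MAP kinases and proteins that shorten the life of mRNA. In the kidney these genes are known to respond to growth factors, injury, hormones and the handling of tissue.

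In the 8 high tubules Fos, which forms the AP-1 dimer with a JUN protein, ranged over 1246, 2027 and 3616 TPM (lowest, median, highest), against 241, 604 and 959 TPM in the 8 low tubules. Junb, a JUN family partner of Fos, ranged over 1154, 1515 and 2848 TPM in the high tubules and 353, 568 and 733 TPM in the low tubules. Egr1, a zinc-finger transcription factor, ranged over 674.5, 976 and 2170 TPM in the high tubules and 259, 376 and 509 TPM in the low tubules. These 3 genes chose the groups, so their gap is a description and was not tested. All 3 were abundant in the low tubules too. The mean score differed by 1.60 log2 units between high and low tubules, which is 3.04-fold on the TPM + 1 scale.

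The lowest high MUT tubule scored 10.02 and the highest middle MUT tubule 10.00. At the other end the lowest middle MUT tubule scored 9.35 and the highest low MUT tubule 9.20. Among WT tubules the edges were 10.39 for high and 10.19 for middle, and 9.34 for low and 9.35 for middle. All 24 tubules kept their place when the score was computed without Fos, 20 kept it without Junb and 22 without Egr1.

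High and low tubules came largely from different mice. The high tubules were 1 from MUT mouse 1, 2 from MUT mouse 2, 1 from MUT mouse 3, 2 from WT mouse 1 and 2 from WT mouse 4. The low tubules were 1 from MUT mouse 3, 3 from MUT mouse 4, 1 from WT mouse 2 and 3 from WT mouse 3. MUT mouse 3 alone gave both a high and a low tubule, so the level of the response and the mouse could be separated only in part. Mean scores per mouse ran between 8.73 in MUT mouse 4 and 10.55 in WT mouse 1. Tubules of 1 mouse also differed: the range within a mouse was 2.11 in WT mouse 1, 1.29 in MUT mouse 3 and 0.0496 in MUT mouse 2.

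**Figure D1:**
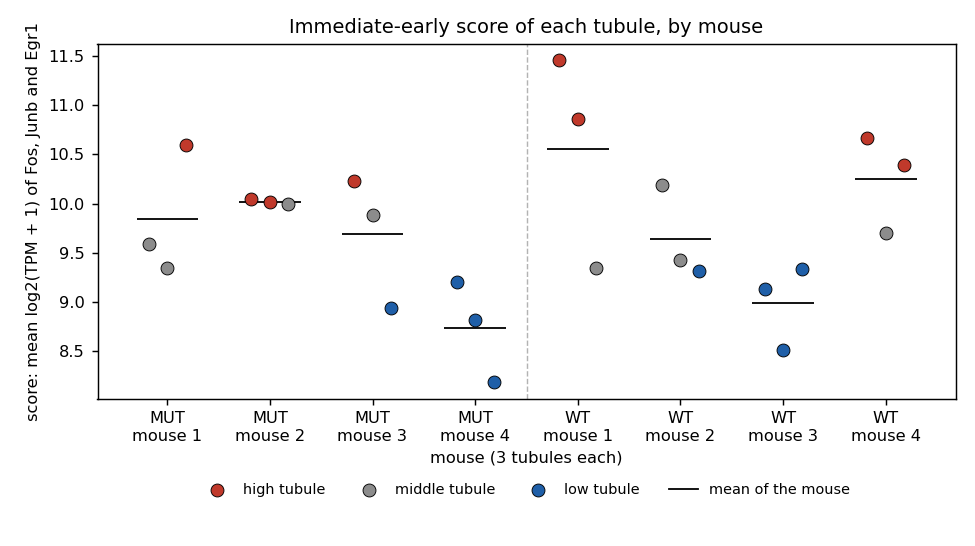
Immediate-early score (mean log2(TPM + 1) of Fos, Junb and Egr1, vertical axis) of each of the 24 tubules by mouse, with MUT mice on the left and WT mice on the right. Colours mark high, middle and low tubules and the horizontal line is the mean of a mouse; all 3 tubules of MUT mouse 4 and of WT mouse 3 are low, and WT mouse 1 spans 2.11 units.

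The number of genes listed above 0 TPM was 23580, 30284 and 32480 (lowest, median, highest) in high tubules and 27361, 28754 and 30813 in low tubules. It was lowest in the 2 tubules with the highest scores, with 25448 in tubule 1 and 23580 in tubule 2 of WT mouse 1, both below every low tubule. The depth of a library is unknown, since TPM values carry none. Tubule 3 of WT mouse 2, a low tubule, stood apart: its principal cell markers summed to 57370 TPM, against at most 36945 TPM in the other 7 low tubules. Its markers of type B intercalated cells summed to 1877 TPM, against 3680 to 4395 TPM in those 7. RNA of neighbouring segments and of blood varied in both groups: proximal tubule markers summed to 58.3, 161 and 1458 TPM in high tubules and 159, 694 and 7924 TPM in low tubules. Erythrocyte markers summed to 0.62, 1.84 and 395 TPM in high tubules and 3.64, 21.6 and 24918 TPM in low tubules. Thick ascending limb markers summed to 18.0, 35.4 and 4844 TPM in high tubules and 26.2, 56.9 and 952 TPM in low tubules. The 4844 TPM was in tubule 1 of WT mouse 1, which had the highest score. Tubule 1 of WT mouse 4, also a high tubule, held 2075 TPM. The part of such RNA in the results that follow was not tested apart from the refits given beside them.

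In the fit with mouse as a random effect, far more genes were called higher than lower in the high tubules. Of the 78 higher ones 38 belonged to lists of inducible, stress or clock genes. The 32 lists name 405 genes, not all of them tested. They were chosen with earlier results of these data known, so the 38 is a description. Of 15010 genes that averaged 1 TPM or more, 78 were higher in the high tubules and 16 were lower at an adjusted p under 0.05 (limma with genotype as a term and mouse as a random effect, Benjamini-Hochberg). These are 0.52% and 0.107% of the genes tested. The 78 higher genes had a median log2 difference of 0.82 (0.18 to 3.19) and 33 of them differed by over 1 log2 unit. The 16 lower genes had a median of -0.23 (-0.56 to -0.15) and none fell by over 1 log2 unit. Over all genes tested the median difference was 0.02 and 55.0% of genes were higher in high tubules. All 8 high tubules lay above all 8 low tubules for 43 genes (0.286%) and below them for 17 genes (0.113%). With mouse as a fixed block in the same 16 tubules, where only MUT mouse 3 informs the difference, 18 genes were called higher and 28 lower and none of the 94 was among them, while 75 of the 78 were higher and 16 of the 16 lower. With 1 mean per mouse and level 3 genes were called. Because the groups were cut from measured values and many inducible genes are regulated together, an adjusted p here states only how tightly a gene followed the 3 score genes in these tubules.

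The 8 middle tubules were not used in the fit. Their median lay between those of the high and the low tubules for 78 of the 78 higher genes and 16 of the 16 lower. The same was true of 42.3% of all genes tested. Middle tubules were set apart by a middle score and came from mice that also gave high or low tubules. Genes chosen for following the score were therefore likely to lie between, and the order is a description. In MUT mouse 3, 75 of the 78 genes were higher in its high tubule than in its low tubule and 16 of the 16 were lower, while 50.4% of all genes were higher. That pair of tubules was also part of the fit. The number of calls rested on a few mice: it was 9 without MUT mouse 4, 11 without WT mouse 3, 36 without WT mouse 4, 48 without WT mouse 1, 58 without MUT mouse 2, 177 without MUT mouse 3 and 775 (480 higher, 295 lower) without tubule 3 of WT mouse 2. Without MUT mouse 4 or WT mouse 3, 1 low tubule of that genotype was left. Leaving out 1 tubule otherwise gave 54 to 275 calls, the highest without the low tubule of MUT mouse 3, tubule 3. All 94 genes remained called without tubule 3 of WT mouse 2. In every one of these refits the 78 genes stayed higher and the 16 stayed lower. The refits used tubules that had chosen the genes, so the kept signs were largely fixed in advance. Btg2, Jun, Zfp36, Jund, Ppp1r15a, Ccn1, Dusp5 and Fosb were called whichever of the 8 mice was left out.

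Members of AP-1 rose with the score genes. Jun, the main partner of Fos, ranged over 366, 624 and 836 TPM in high tubules, 319 TPM at the median in middle tubules, and 105, 184 and 288 TPM in low tubules. The groups did not overlap, and the log2 difference was 1.64 (SE 0.16, adjusted p = 0.000447), or 3.13-fold. Jund, a JUN protein usually held at a steady level, ranged over 273, 321 and 478 TPM in high tubules and 136, 183 and 213 TPM in low tubules, again without overlap. Its log2 difference was 0.88 (SE 0.10, adjusted p = 0.00123).

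Fosb, a second FOS family member, was far scarcer. It ranged over 4.78, 22.4 and 36.3 TPM in high tubules and 0.50, 2.86 and 5.66 TPM in low tubules, with a log2 difference of 2.48 (SE 0.29, adjusted p = 0.00123). Tubule 2 of MUT mouse 2 was the only high tubule within the range of the low ones. Atf3, a stress-induced factor that pairs with JUN proteins, showed the largest difference among the 94 genes. It ranged over 46.2, 123 and 249 TPM in high tubules, had a median of 16.3 TPM in middle tubules, and ranged over 2.28, 14.6 and 34.8 TPM in low tubules. The log2 difference was 3.19 (SE 0.41, adjusted p = 0.00157), or 9.11-fold, and the middle tubules lay close to the low ones at the median. Mafk, a small MAF protein, was the other called member, with a difference of 0.63. Of 14 AP-1 and ATF genes listed besides the score genes, 11 were tested, 9 were higher and 5 were called (median log2 difference 0.59, against 0.02 for all genes).

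Other inducible transcription factors followed. Ier2, a short nuclear protein of the immediate-early class, ranged over 820, 1108 and 1852 TPM in high tubules and 281, 441 and 577 TPM in low tubules (log2 difference 1.39, SE 0.20, adjusted p = 0.00432). Nr4a1, an orphan nuclear receptor, ranged over 91.3, 152 and 482 TPM in high tubules and 16.7, 48.3 and 70.9 TPM in low tubules (1.94, SE 0.32, adjusted p = 0.0110). Neither gene had overlapping groups. Egr2, a relative of Egr1, reached 4.64, 9.87 and 15.5 TPM in high tubules and 1.20, 2.15 and 4.19 TPM in low tubules, with a log2 difference of 1.66. Bhlhe40, a repressor that also acts in the circadian clock, ranged over 115, 170 and 362 TPM in high tubules and 50.0, 70.7 and 104 TPM in low tubules. Srf, the factor that itself drives many immediate-early promoters, differed by 0.80 (SE 0.16, adjusted p = 0.0407), with 30.7 to 65.2 TPM in high tubules and 13.6 to 28.6 TPM in low tubules. Klf6 and Csrnp1 were also called, at 1.10 and 1.14. In all, 18 of the 23 genes of this list were tested, all 18 were higher and 7 were called (median 0.90).

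**Figure D2:**
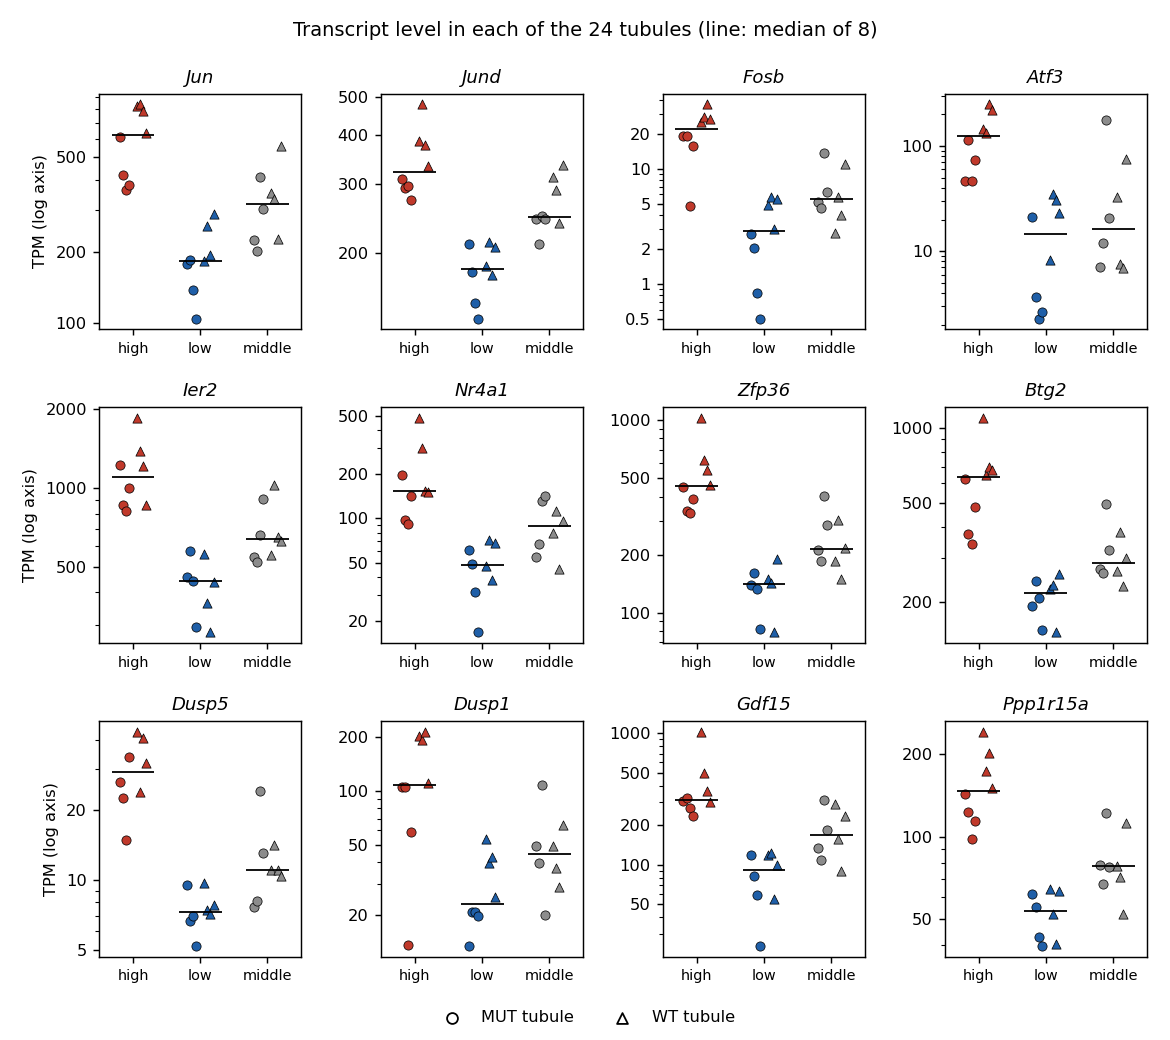
TPM (log axis) of 12 inducible genes in each tubule, with the 8 high, the 8 low and the 8 middle tubules in columns; circles are MUT, triangles are WT and the line is the median of 8. Jun runs over 366 to 836 TPM in high tubules and 105 to 288 TPM in low tubules, while Dusp1 and Fosb each have 1 high tubule within the range of the low ones.

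Genes that cut the response short rose as well. Zfp36, a protein that binds AU-rich mRNA and speeds its decay, ranged over 329, 454 and 1022 TPM in high tubules, had a median of 213 TPM in middle tubules, and ranged over 79.0, 141 and 189 TPM in low tubules. The groups did not overlap, with a log2 difference of 1.88 (SE 0.23, adjusted p = 0.00157). Btg2, an antiproliferative protein that recruits the deadenylase complex, ranged over 341, 635 and 1097 TPM in high tubules and 151, 216 and 260 TPM in low tubules (1.50, SE 0.19, adjusted p = 0.00157). Ppp1r15a, which directs a phosphatase to eIF2 alpha and so restores translation after stress, differed by 1.48 (SE 0.16, adjusted p = 0.000687), with 98.1 to 242 TPM in high tubules and 39.6 to 64.3 TPM in low tubules. Gadd45b, a growth-arrest protein, ranged over 121, 176 and 288 TPM in high tubules and 22.6, 37.2 and 114 TPM in low tubules, with a difference of 1.98. Mcl1, a short-lived protein that opposes apoptosis, differed by only 0.58 but without overlap: 91.7 to 133 TPM in high tubules and 60.7 to 86.8 TPM in low tubules. Of the 19 genes for mRNA decay and growth arrest, all tested, 18 were higher and 10 were called (median 0.65). Zfp36 and Btg2 were also the genes whose levels followed the score most closely over the 24 tubules, at Spearman rho of 0.973 and 0.968. Ier2, Bhlhe40 and Ppp1r15a came next with 0.943, 0.943 and 0.936, and all tubules share the score genes' own libraries, so these values carry no test.

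Phosphatases that switch off MAP kinases differed in how evenly they rose. Dusp5, a nuclear phosphatase of ERK, ranged over 14.8, 29.2 and 43.5 TPM in high tubules and 5.19, 7.31 and 9.71 TPM in low tubules, without overlap (1.78, SE 0.18, adjusted p = 0.000447). Dusp1, the classical immediate-early MAP kinase phosphatase, ranged over 13.6, 108 and 216 TPM in high tubules and 13.4, 23.1 and 54.0 TPM in low tubules (1.85, SE 0.39, adjusted p = 0.0468). Tubule 2 of MUT mouse 2, which was low in Fosb, held the lowest Dusp1 of the high tubules and lay at the level of the lowest low tubule. Ier3, an inducible regulator of ERK signalling, ranged over 155, 319 and 658 TPM in high tubules and 69.1, 84.9 and 137 TPM in low tubules (1.68, SE 0.22, adjusted p = 0.00229). Dusp10 differed by 0.83 with an adjusted p of 0.114 and Dusp8 by 1.46 with 0.154, so neither passed the test. In this list 14 of 17 genes were tested, all 14 were higher and 3 were called (median 0.46).

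Secreted and stress-linked products were also raised. Gdf15, a cytokine made by stressed cells, ranged over 236, 311 and 1026 TPM in high tubules and 24.1, 91.0 and 123 TPM in low tubules (2.18, SE 0.34, adjusted p = 0.00695). Hbegf, a ligand of the EGF receptor, ranged over 51.9, 70.5 and 151 TPM in high tubules and 22.8, 27.3 and 35.8 TPM in low tubules (1.39, SE 0.18, adjusted p = 0.00157). Neither gene had overlapping groups. These were the 2 called members of the 10 growth factor ligands tested, of 15 listed, and 8 of the 10 were higher (median 0.28). Ccn1, a matricellular protein that SRF and YAP are known to induce, ranged over 118, 145 and 235 TPM in high tubules and 14.5, 44.2 and 74.2 TPM in low tubules (1.91, SE 0.23, adjusted p = 0.00157). Amotl2, a junction protein of the Hippo pathway, was the other of the 2 called genes among 17 tested, of 18 listed, at 0.38, and the median of that list was 0.18.

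Among NF-kB genes 2 of 15 tested were called and among cAMP targets 1 of 12, against 0.52% of all genes called higher. Nfkbiz and Nfkbia, both inhibitors or modulators of NF-kB that NF-kB itself induces, were called at 1.52 and 0.89. Nfkbia ranged over 149, 234 and 546 TPM in high tubules and 98.1, 136 and 170 TPM in low tubules, with overlap. They were the 2 called genes of 15 tested among 20 listed NF-kB genes, of which 12 were higher (median 0.11). Of 13 listed CREB target genes 12 were tested, 8 were higher and Nr4a1 was the 1 called (median 0.12).

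Heat shock genes rose in part. Hspa1a and Hspa1b, inducible HSP70 genes, differed by 1.56 and 1.46 (adjusted p = 0.0122 and 0.0143), and neither gene had overlapping groups. Hspa1a ranged over 93.2, 159 and 361 TPM in high tubules and 39.1, 57.6 and 80.0 TPM in low tubules. The 2 genes are near-identical copies, so the split of reads between them is uncertain. Dnajb1, an HSP40 partner of HSP70, ranged over 67.4, 94.3 and 149 TPM in high tubules and 34.6, 44.4 and 65.5 TPM in low tubules (1.12, SE 0.16, adjusted p = 0.00432). Dnajb4 was called at 0.73. The constitutive HSP70 gene Hspa8 differed by 0.30 and did not pass (adjusted p = 0.154). All 18 heat shock genes listed were tested, 16 were higher and 4 were called (median 0.28).

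Among 18 genes of the unfolded protein and integrated stress responses, all tested, 11 were higher and 2 were called, Ppp1r15a and Ddit3 (median 0.17). Ddit3, the factor CHOP, ranged over 79.3, 135 and 438 TPM in high tubules and 37.2, 53.1 and 69.2 TPM in low tubules (1.41, SE 0.25, adjusted p = 0.0133). Hspa5, the chaperone of the endoplasmic reticulum, had 398 to 1457 TPM in high tubules and 477 to 709 TPM in low tubules (0.34, adjusted p = 0.495). Among 13 listed p53 targets, all tested, 10 were higher and 2 were called, Gdf15 and Btg2, which other stimuli also induce (median 0.08). Cdkn1a, the p53 target p21, did not pass, with 10.9, 22.7 and 51.7 TPM in high tubules and 15.8, 21.7 and 29.7 TPM in low tubules (0.14, adjusted p = 0.888).

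Among circadian clock genes 3 were called, all higher in high tubules. Nr1d1, the repressor REV-ERB alpha, ranged over 108, 150 and 253 TPM in high tubules and 50.3, 66.0 and 95.5 TPM in low tubules (1.20, SE 0.18, adjusted p = 0.00470). Dbp, an output factor of the clock, ranged over 41.4, 63.0 and 108 TPM in high tubules and 12.6, 21.2 and 35.3 TPM in low tubules (1.58, SE 0.27, adjusted p = 0.0122). Neither gene had overlapping groups. Bhlhe40, described with the transcription factors, was the third called of 16 clock genes tested among 18 listed, of which 11 were higher (median 0.54). Per1, Per2 and Cry2 differed by 0.97, 0.78 and 0.55 without passing. Arntl, the activator BMAL1, had the opposite sign, with 15.9, 23.9 and 31.2 TPM in high tubules and 26.2, 32.2 and 39.3 TPM in low tubules (-0.41, adjusted p = 0.202). Npas2 and Cry1 likewise had negative differences that did not pass, -0.48 and -0.45.

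**Figure D3:**
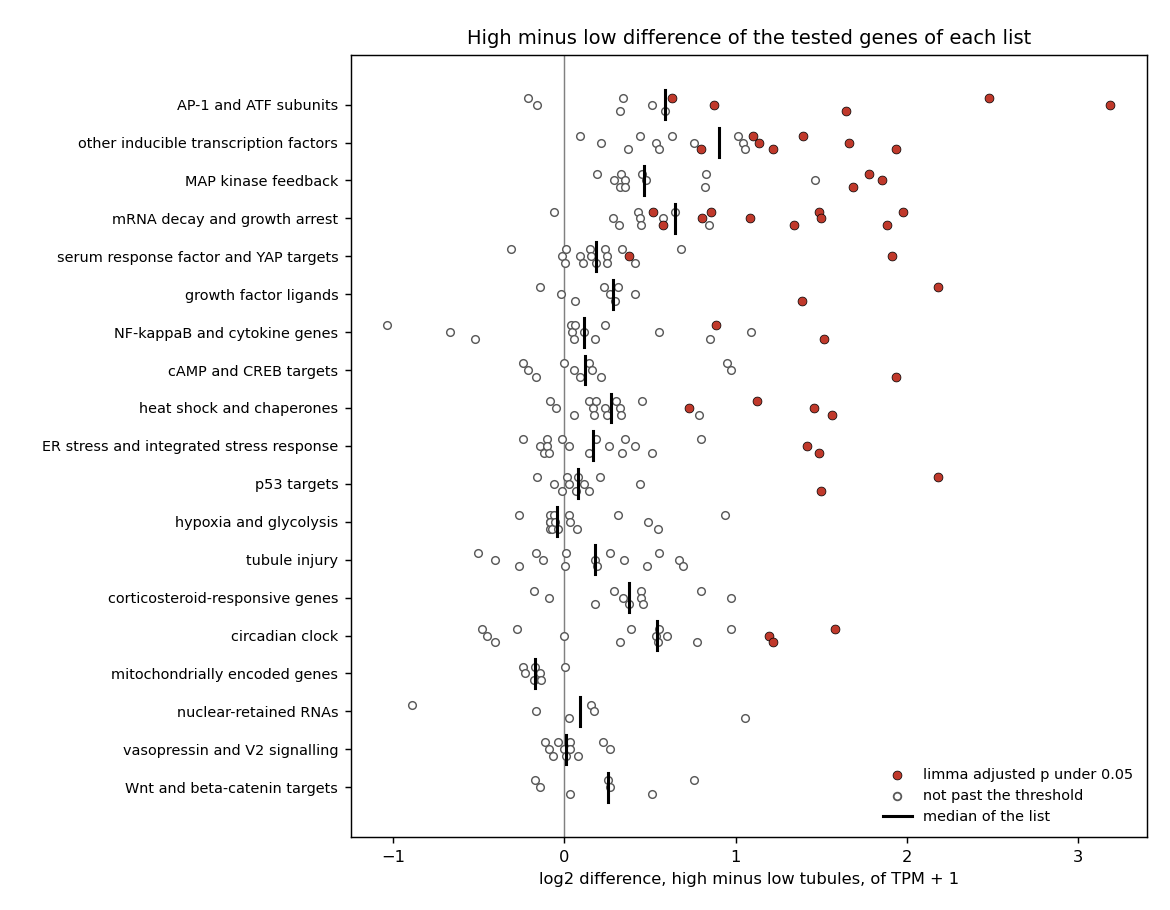
Log2 difference, high minus low tubules, of every tested member of 19 response and state lists (horizontal axis), with filled points for genes at an adjusted p under 0.05 and a line at the median of each list. The medians are 0.90 for other inducible transcription factors, 0.65 for mRNA decay and growth arrest and 0.02 over all genes tested.

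Several other lists held no called gene. Over all genes tested 0.52% were called higher and 0.107% lower, so lists this short can hold 0 by that share alone. The counts of called genes were 0 of 16 tested for hypoxia and glycolysis, 0 of 15 for tubular injury and 0 of 11 for corticosteroid targets, with median differences of -0.04, 0.18 and 0.38. Mitochondrially encoded genes, of which 6 of 13 were listed at 0 in every tubule, had 0 of 7 called (median -0.17), and nuclear-retained RNAs had 0 of 6 (median 0.09). The same was true of vasopressin V2 signalling, with 0 of 11 tested (median 0.01), and of Wnt targets, with 0 of 7 (median 0.26). Aqp2, the water channel that vasopressin controls, ranged over 11547, 14608 and 23077 TPM in high tubules and 12525, 14436 and 30070.0 TPM in low tubules (-0.09, adjusted p = 0.897). Avpr2, the vasopressin V2 receptor, ranged over 756, 948 and 1369 TPM in high tubules and 849, 999 and 1733 TPM in low tubules (-0.11, adjusted p = 0.816). Ctnnb1, the gene for beta-catenin, ranged over 335, 365 and 390 TPM in high tubules and 373, 398 and 431 TPM in low tubules, and its difference of -0.14 did not pass (adjusted p = 0.141). Without tubule 3 of WT mouse 2, 775 of all 15010 genes were called. There the hypoxia list held 4 called genes and the mitochondrial and Wnt lists 2 each. The injury, corticosteroid, nuclear RNA and V2 lists held 1 each. Ctnnb1 was 1 of the 2 Wnt genes called there, lower in high tubules. Over the 24 refits without a mouse or a tubule the difference of Ctnnb1 was -0.17 to -0.12. It was called in 2 of them, both without tubule 3 of WT mouse 2.

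The counts per list depended on the same mice as the total. Without WT mouse 3 the called genes numbered 4 in the AP-1 list, 4 in the mRNA decay list, 1 in the MAP kinase list and 0 in the lists of other transcription factors, heat shock and clock genes. Without MUT mouse 4 they numbered 3, 3, 2, 0, 0 and 0 in those lists. Without tubule 3 of WT mouse 2 they numbered 7, 13, 5, 9, 5 and 5.

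Of the 78 higher genes 40 belonged to none of the 32 lists, and the following were chosen after their values were seen. Irs2, an adaptor of insulin receptor signalling, ranged over 31.1, 39.7 and 94.7 TPM in high tubules and 10.9, 16.0 and 22.4 TPM in low tubules (1.39, SE 0.21, adjusted p = 0.00481). Id2, an inhibitor of helix-loop-helix factors, ranged over 470, 629 and 993 TPM in high tubules and 312, 337 and 408 TPM in low tubules, with a difference of 0.86. Neither gene had overlapping groups.

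The 16 lower genes differed little in size and belonged to no list. Ces1d, a carboxylesterase of lipid metabolism, ranged over 117, 162 and 200 TPM in high tubules and 199, 228 and 247 TPM in low tubules (-0.50, SE 0.09, adjusted p = 0.0239). Msto1, a protein of mitochondrial distribution, ranged over 32.4, 38.4 and 42.5 TPM in high tubules and 46.0, 49.7 and 54.2 TPM in low tubules, without overlap (-0.37, SE 0.05, adjusted p = 0.00455). Paics, an enzyme of purine synthesis, and Rrm1, the large subunit of ribonucleotide reductase, differed by -0.21 and -0.28. Paics had 242 to 281 TPM in high tubules and 284 to 335 TPM in low tubules. Anxa5, a calcium-dependent phospholipid binder, had 558 to 701 TPM in high tubules and 705 to 854 TPM in low tubules (-0.24, adjusted p = 0.0453). Nqo2, a quinone reductase, and Slc31a2, a copper transporter family member, differed by -0.27 and -0.23, also without overlap.

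Whether the same genes followed the response among tubules of 1 mouse was asked in all 24 tubules, with the score as a continuous measure and each mouse as a fixed term. Slopes were scaled to the gap of 1.60 between the groups. In this fit 71 genes rose with the score (0.473% of those tested) and 1 fell (0.00666%). Of the 71, 38 were among the 78 genes higher in high tubules, which is 53.5% of the 71 and 48.7% of the 78. The direction was the same for 77 of the 78 and 16 of the 16, against 65.2% of all genes, but none of the 16 lower genes was called within mice. The single falling gene was Mtarc2, a mitochondrial reductase, at -0.23 (adjusted p = 0.0393). The fit within mice includes all 16 high and low tubules, so the overlap is a description.

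Zfp36, Ier2, Nr4a1 and Btg2 rose with the score within mice and had nearly the same slope within mice as between groups: 1.87, 1.43, 1.95 and 1.55 (adjusted p = 1.4e-11, 3.06e-10, 1.25e-07 and 4.59e-08). The score came from the same libraries, so these p-values state only how tightly each gene followed the 3 score genes. Scores ranged most widely in WT mouse 1 (2.11) and least in MUT mouse 2 (0.0496). The fit within mice was not repeated without a mouse. In WT mouse 1, Zfp36 was 1022 and 617 TPM in the high tubules 1 and 2 and 184 TPM in the middle tubule 3. Nr4a1 was 482, 300 and 79.8 TPM in those tubules. Tubule 3 was the low one of the 3 for both genes. Other genes were smaller within mice than between groups and did not pass there. Atf3 had a slope of 1.60 (adjusted p = 0.0894), Hspa1a 0.75 (0.240), Dnajb1 0.64 (0.119), Dbp 0.34 (0.434) and Mcl1 0.16. In WT mouse 1, Mcl1 was 133, 132 and 117 TPM in tubules 1, 2 and 3.

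A further 34 genes were called within mice only. They included Arl4d, a small GTPase, at 1.04 (adjusted p = 5e-06), against a difference of 0.87 between the groups (adjusted p = 0.151). The actin genes Actb and Actg1, near-identical in their coding sequence and so uncertain in how reads were split, had slopes of 0.49 and 0.47, and Actb differed by 0.25 between the groups (adjusted p = 0.236). Hes1, a repressor known as a Notch target, rose by 0.75 within mice, and Neat1, a nuclear long RNA, by 1.31. Adm, the peptide adrenomedullin, rose by 0.81 (adjusted p = 0.0311) and differed by 0.94 between the groups (adjusted p = 0.0622). Passing in 1 fit and not in the other does not show that a gene behaves differently in them, and that difference was not tested.

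**Figure D4:**
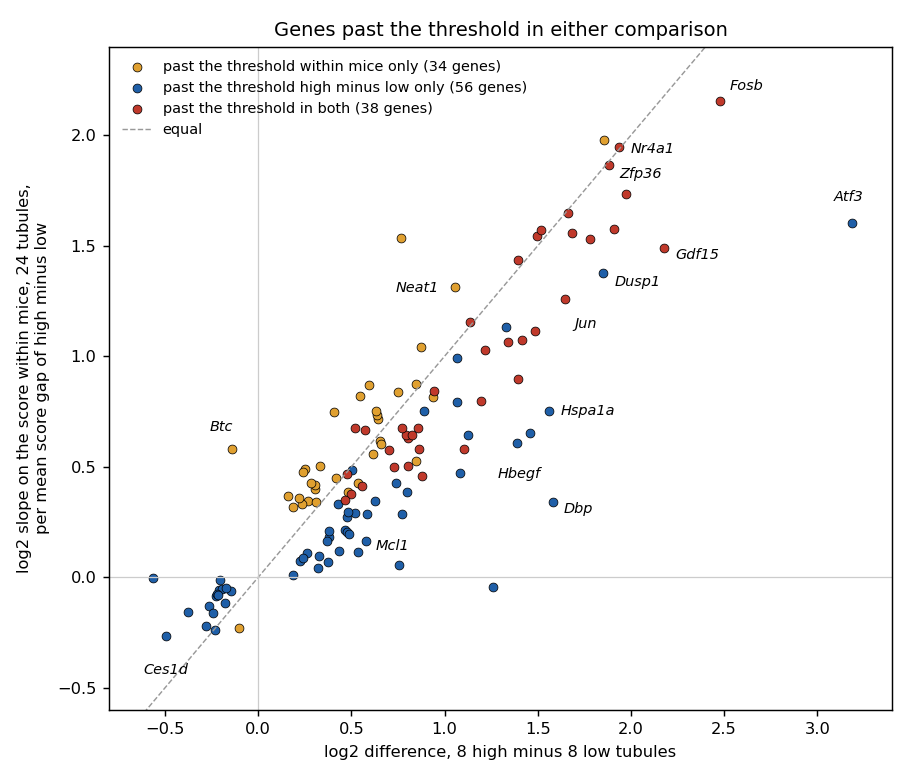
For each gene called in either fit, the log2 difference between high and low tubules (horizontal axis) and the slope within mice per score gap of 1.60 (vertical axis); the dashed line marks equal values. Of the genes shown 38 were called in both fits, 56 between high and low tubules only and 34 within mice only; Dbp lies away from the line, with 1.58 and 0.34.

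Both genotypes contributed to each level, and the difference between high and low tubules was compared between them. The interaction between level and genotype had an unadjusted p under 0.05 for 792 genes, where chance alone gives about 1 in 20. No gene passed this test after adjustment (0 of 15010, 0% called, smallest adjusted p 0.757). The count was 476 without WT mouse 3, where tubule 3 of WT mouse 2 was the only low WT tubule left, and 28 without MUT mouse 4. The median difference of the 78 genes was 0.71 in MUT tubules alone and 0.96 in WT tubules alone. All 78 genes were higher in both, which the choice of genes in the pooled tubules largely fixed. A p that misses the threshold does not show that the genotypes respond alike.

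The cell type make-up of the tubules was compared by summed marker levels, with no test. In bulk RNA fewer cells of a type and less RNA per cell cannot be told apart. Principal cell markers summed to 27527, 33794 and 47892 TPM in high tubules and 29993, 31177 and 57370 TPM in low tubules, and all 15 listed markers were tested with 0 called (median difference 0.08). Type A intercalated markers summed to 879, 1058 and 1662 TPM in high tubules and 702, 974 and 1852 TPM in low tubules. Type B markers summed to 2540, 3310 and 3784 TPM in high tubules and 1877, 3811 and 4395 TPM in low tubules. The principal, type A and type B markers were present in every one of the 16 tubules, so the libraries hold both kinds of collecting duct cell. No marker was called in any of the 13 cell type lists, against 0.52% of all genes called higher and 0.107% lower. Without tubule 3 of WT mouse 2, where 775 of all 15010 genes were called, some markers were called too. In that refit 2 principal cell markers were called higher and 2 lower, 2 type A markers were called higher and 2 type B markers lower, with list medians of 0.17, 0.44 and -0.24 for the principal, type A and type B lists. The 10 markers shared by intercalated cells had a median difference of -0.09 and the 7 tested of the distal convoluted and connecting tubule -0.20. Fibroblast, podocyte and urothelium lists held 3, 2 and 2 tested genes and summed to at most 95.8, 9.97 and 6.24 TPM in any of the 16 tubules.

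Markers of the neighbouring segments were uneven. The 15 proximal tubule markers tested, of 16 listed, were all lower in high tubules (median -1.20), with 0 called, and within mice their median slope was -0.67 with 4 rising. The 6 thick ascending limb markers had a median of -0.28 between groups and 0.82 within mice, where all 6 had rising slopes and 0 were called. Their sum was 4844, 30.2 and 21.9 TPM in tubules 1, 2 and 3 of WT mouse 1. In WT mouse 4 it was 2075, 65.2 and 40.5 TPM. In MUT mouse 3 the high tubule held 18.0 TPM and the low tubule 417 TPM. The slope of Umod was 0.63 with an SE of 1.41. The 5 erythrocyte markers had medians of -1.02 between groups and 0.16 within mice. Leaving out the 3 high and 4 low tubules with over 1000 TPM of these 3 marker sets together left 9 tubules, a limit chosen after the values were seen. There Zfp36 alone of the 78 was still called. All 78 genes stayed higher and all 16 stayed lower, against 47.0% of all genes higher. The 9 tubules were among those that chose the genes, so the kept signs were largely fixed in advance. Macrophage markers ranged over 118, 576 and 1760 TPM in high tubules and 89.0, 769 and 1786 TPM in low tubules. The 14 tested had medians of -0.17 between groups and -0.63 within mice, where 1 rose. Their median between groups was -0.41 without tubule 3 of WT mouse 2 and 0.61 without MUT mouse 4. Endothelial markers ranged over 149, 252 and 314 TPM in high tubules and 86.6, 234 and 423 TPM in low tubules. The 9 tested had medians of -0.105 between groups and -0.092 within mice, where 0 rose.

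**Figure D5:**
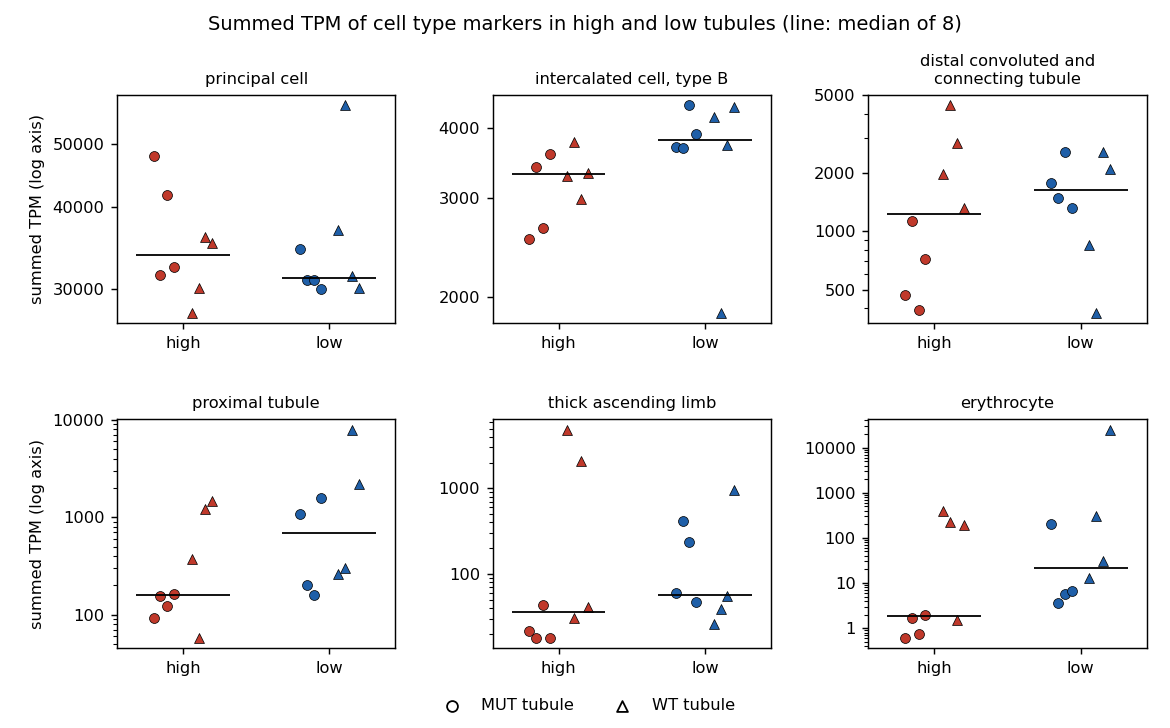
Summed TPM (log axis) of 6 marker lists in the 8 high tubules, on the left of each panel, and the 8 low tubules, on the right; circles are MUT and triangles WT. Principal cell sums overlap between the groups, while the proximal tubule sum reaches 7924 TPM in a low tubule against 1458 TPM at most in high tubules. The thick ascending limb sum reaches 4844 TPM in a high tubule against 952 TPM at most in low tubules.

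The promoters of the called genes were searched for sequence motifs that inducible factors are known to bind. RefSeq promoters of build GRCm38.p6 were matched by symbol for 66 of the 78 higher genes, and the 250 bases before the start were read on both strands. The build of the deposited values is GRCm39, so the coordinates here are those of the promoter table. A CArG box, the site that SRF binds, was found in 5 of the 66 promoters (7.58%), those of Dusp5, Egr2, Rnd3, Srf and Zfp36, against 1.41% of the 10383 promoters of tested genes and 1.62% of all 27025. TGACGTCA, the site of CREB and ATF proteins, was found in 3 (4.55%), those of Btg2, Dusp1 and Ppp1r15a, against 3.02% and 1.77%. TGANTCA was searched with any middle base, so it is wider than the AP-1 site, which has C or G there. It was found in 3 (4.55%), those of Csrnp1, Ddit3 and Zfp36l1, against 5.36% and 7.82%. CACGTG, an E-box not particular to clock factors, was found in 12 (18.2%), against 9.88% and 6.86%. These were Dusp1, Egr2, Gadd45b, Gadd45g, Gdf15, Irs2, Klf6, Mafk, Midn, Pard6b, Vgll4 and Zc3h11a. The called clock genes Nr1d1, Dbp and Bhlhe40 were not among them. GAANNTTC, the core of the heat shock element, was found in 4 (6.06%), among them Hspa1a, Hspa1b and Jun, against 6.27% and 7.73%. No TGACGTCA match contains TGANTCA. These are matches of letters and no test was made of them.

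The 200 bases before the start are shown for called genes with a CArG box or with TGACGTCA, chosen after the matches were seen, 5′ to 3′ with the matches in capitals. Srf (chr17:46556163-46556362, minus strand) has CArG boxes that begin at -82 and -62 from the start. Dusp5 (chr19:53528945-53529144, plus strand) has them at -82 and -72, side by side, and Zfp36 (chr7:28379229-28379428, minus strand) has 1 at -58.
Srf: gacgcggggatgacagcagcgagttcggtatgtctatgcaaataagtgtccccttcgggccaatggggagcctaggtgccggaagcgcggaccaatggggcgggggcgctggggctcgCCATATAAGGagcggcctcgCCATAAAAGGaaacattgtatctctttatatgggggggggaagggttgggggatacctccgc
Dusp5: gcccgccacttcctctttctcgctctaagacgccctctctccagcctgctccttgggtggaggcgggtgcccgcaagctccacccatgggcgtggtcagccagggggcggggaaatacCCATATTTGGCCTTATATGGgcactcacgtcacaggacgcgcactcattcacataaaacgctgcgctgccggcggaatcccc
Zfp36: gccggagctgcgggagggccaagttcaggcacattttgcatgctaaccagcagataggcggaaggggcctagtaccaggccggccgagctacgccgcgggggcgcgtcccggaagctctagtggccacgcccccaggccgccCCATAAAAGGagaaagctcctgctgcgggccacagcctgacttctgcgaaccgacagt
The other promoters hold TGACGTCA, at -166 in Btg2 (chr1:134079156-134079355, minus strand), at -12 in Ppp1r15a (chr7:45526269-45526468, minus strand) and at -143 in Dusp1 (chr17:26508473-26508672, minus strand).
Btg2: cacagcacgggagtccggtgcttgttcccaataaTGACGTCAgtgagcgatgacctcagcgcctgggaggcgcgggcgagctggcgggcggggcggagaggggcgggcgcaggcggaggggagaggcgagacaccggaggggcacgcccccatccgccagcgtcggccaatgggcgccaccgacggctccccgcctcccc
Ppp1r15a: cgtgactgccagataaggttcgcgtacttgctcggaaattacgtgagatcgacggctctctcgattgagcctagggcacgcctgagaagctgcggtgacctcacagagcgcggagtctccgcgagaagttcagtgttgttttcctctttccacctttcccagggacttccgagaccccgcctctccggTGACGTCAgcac
Dusp1: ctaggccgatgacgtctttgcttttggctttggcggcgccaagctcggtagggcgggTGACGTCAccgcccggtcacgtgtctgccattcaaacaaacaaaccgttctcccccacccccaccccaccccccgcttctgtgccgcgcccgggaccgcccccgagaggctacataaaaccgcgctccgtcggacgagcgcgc
Srf, Dusp5 and Zfp36 had log2 differences of 0.80, 1.78 and 1.88 between high and low tubules. Btg2, Ppp1r15a and Dusp1 had 1.50, 1.48 and 1.85, so genes with either motif overlapped in the size of their difference.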

How the data were processed

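RNA of single microdissected tubules was extracted with a Zymo kit and made into cDNA with the SMART-Seq V4 kit, per the labels' protocols. The deposited table holds TPM values per gene for 24 tubules. It was made with STAR, RSEM 1.3.3 and the build GRCm39 per the submitters' processing notes, which state neither their roles nor their settings. Library depth is unknown.

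The tubules were divided by the score as given above, and the members and gene lists were chosen with earlier results of these data known. Genes that averaged 1 TPM or more were tested as log2(TPM + 1) in limma 3.58.1 (R 4.3.3), without the 3 score genes, with an intensity trend, genotype as a term and mouse as a random effect (correlation 0.16). A fold change on this scale understates that of low genes. p-values were adjusted by the Benjamini-Hochberg method over all 15010 genes, at a threshold of 0.05. The 3 tubules of a mouse share the animal, and the labels' number is read as the mouse; this pairing is the replicate block of the fit within mice. The numbers do not pair MUT with WT mice. The fits were tested on simulated data.

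Genes named were a set of inducible genes, V2 genes and Ctnnb1, the genes with the largest difference among those called with a mean of at least 10 TPM, those closest to the score by rank, and those called in all refits without a mouse. In each of 32 lists the tested members with the smallest p, called or not, and those with the highest TPM were added. Of the 125 named genes 37 were called, and not all 125 are described above. Mafk, Srf, Csrnp1, Dnajb4, Hspa1b, Dusp8, Cdkn1a, Dbp, Per2, Cry1, Cry2, Arntl, Npas2, Arl4d, Irs2 and Id2 were chosen after their values were seen. Alternatives changed the pseudocount, filter, scaling, score, groups, covariates and tubules used.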

Additional observations from a re-analysis of the deposited data

Results flagged for a closer look

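In 250 groups (125 named genes, each in 8 high and 8 low tubules), the gap between an extreme tubule and its neighbour, relative to the range on the log2 scale, passed Dixon's 95% critical value 27 times, in 25 genes. Chance alone gives about 1 in 20 groups, or 12.5 of 250. Of the 27 values 15 belonged to tubule 3 of WT mouse 2, a low tubule.

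In that tubule the highest value of the low tubules was 30069.58 TPM for Aqp2, 1733.27 TPM for Avpr2, 10862.82 TPM for Fxyd4, 786.53 TPM for Neat1, 375.23 TPM for Aqp6 and 863.64 TPM for Slc4a1. The same tubule held the lowest value for the mitochondrial genes mt-Nd1 (3239.77 TPM), mt-Nd5 (927.43 TPM) and mt-Cytb (5156.09 TPM). It was also lowest for the type B intercalated genes Slc4a9 (605.71 TPM), Insrr (170.43 TPM) and Slc26a4 (820.23 TPM), for Calb1 (95.68 TPM), a gene of the connecting tubule, for Mt1 (314.25 TPM) and for Dcn (18.65 TPM).

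Tubule 1 of WT mouse 1, the tubule with the highest score, was highest of the high tubules in Ccn1 (235.35 TPM), Ddit3 (438.46 TPM) and Actg1 (2375.89 TPM) and lowest in Crtc2 (25.37 TPM). Among high tubules, Fosb was lowest at 4.78 TPM in tubule 2 of MUT mouse 2, mt-Nd5 was lowest at 1030.19 TPM in tubule 1 of MUT mouse 2, and Foxi1 was lowest at 555.29 TPM in tubule 3 of MUT mouse 1. Among low tubules, tubule 2 of MUT mouse 4 was highest in Anxa5 (854.45 TPM) and lowest in Klf9 (13.06 TPM). Dusp10 was highest at 8.32 TPM in tubule 3 of MUT mouse 3, Actb was lowest at 4055.46 TPM in tubule 3 of MUT mouse 4, and Crtc2 was lowest at 20.8 TPM in tubule 1 of WT mouse 3.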

How the results depend on the processing

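Of the 94 genes called between high and low tubules, the count stayed within 1.5 times under pseudocounts of 0.1 and 5, a minimum of 10 TPM, median-ratio or quantile scaling, the score without Fos or Junb, and the number of genes above 0 TPM as a covariate (80 to 95). It was lower at 40 with no filter, 58 without the genotype term, 18 with the 3 highest and 3 lowest tubules, 3 with means per mouse, 1 in MUT tubules and 2 in WT tubules. It was higher at 249 with tubules taken as independent, 259 with the score as a continuous measure, 677 with the score without Egr1, 206 with the principal cell score as a covariate and 760 with array weights. Leaving out each mouse or tubule gave 9 to 775. Limits on marker RNA of other segments and blood were chosen after seeing the data: without tubules over 20 times the median 0 genes were called (2088 at an unadjusted p under 0.05), and without those over 1000 TPM in sum 2 were. The planned limit of 5 times the median gave no value, since it left no low MUT and no high WT tubule. The cause of these changes was not tested.

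With mouse as a replicate block in the 16 tubules, which rests on MUT mouse 3, 46 genes were called (18 higher, 28 lower) and none was among the 94; the paired fit with the continuous score gave 72. The interaction with genotype was called for 0 genes, for 1 with no filter, 2 with means per mouse, 13 without tubules over 1000 TPM, and 0 to 476 when a mouse or tubule was left out. For 125 named genes, 5262 of 5859 refitted values stayed on their side of the threshold, 480 lost the call and 117 gained it; 0 called values reversed and 199 uncalled ones changed sign. The share of all genes higher in high tubules was 55.0%, 49.5% with median-ratio and 48.3% with quantile scaling. With high tubules from 5 mice and low tubules from 4, differences between mice and between levels cannot be fully told apart.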
